A study of Penicillium oxalicum with 24 samples.

Results

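The 6 libraries compared here came from cellulose cultures of 2 single-gene deletion strains of *Penicillium oxalicum*, a filamentous fungus that secretes plant cell wall-degrading enzymes. Of the 24 RNA-seq libraries of the series, 3 were from the Δ*amyR* mutant and 3 from the Δ*creA* mutant. They were taken by their genotype and carbon source labels, and the pair of mutants was picked because earlier results had cellulase genes above wild-type in each. Both genes encode transcription factors, and the comparison asks how the transcriptomes left by the loss of each one differ. The Δ*amyR* mutant lacked *amyR* (PDE_03964) and kept *creA*, whereas the Δ*creA* mutant lacked *creA* (PDE_03168) and kept *amyR*. Each mutant was made from the wild-type strain 114-2 by replacing the gene with a selection marker, and transformants with a single integration were selected. The study describes a pyrithiamine resistance marker for *amyR* and a hygromycin resistance marker for *creA*. Effects of the marker and of the deleted gene cannot be told apart here. How many transformants gave the triplicates is not given in the sources used here. Mycelia of both were pre-grown for 22 h, starved without carbon for 2 h and moved for 4 h to medium with 2% cellulose. The 3 wild-type libraries from the same cellulose medium served as the common reference where a change from wild-type is given, and the other libraries of the series entered the filter on low genes, the scaling and the estimate of the spread between replicates.

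AmyR is known from *Aspergillus* as a zinc cluster activator that switches on the genes of starch breakdown when maltose-type sugars are present. CreA is the zinc finger protein of carbon catabolite repression in the same genus, where it holds down genes for the use of poorer carbon sources while glucose is available. Breakdown of cellulose needs cellobiohydrolases that work from the chain ends, endoglucanases that cut within the chain, lytic monooxygenases that open the crystal surface, and β-glucosidases that split the released cellobiose.

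The 3 Δ*amyR* libraries held 7462994 to 8534787 uniquely mapped reads in the genes tested, the 3 Δ*creA* libraries 7811986 to 8517728, and the 3 wild-type libraries 7523925 to 7738762. The 20 most abundant genes took 17.0 to 18.4% of the reads in Δ*amyR*, 24.5 to 25.3% in Δ*creA* and 10.4 to 10.6% in wild-type. Across genes, replicates correlated at Pearson r = 0.983 to 0.992 within Δ*amyR* and 0.989 to 0.994 within Δ*creA*. The least alike members of their triplicates were Δ*amyR* replicate 3 and Δ*creA* replicate 2. The replicates were biological triplicates according to the series description. Levels are given as RPKM (the read count scaled to the coding length of the gene and to the total reads of the library) for replicates 1, 2 and 3 in that order. Differences are log2 ratios of Δ*amyR* over Δ*creA* from edgeR's quasi-likelihood test on the read counts with TMM scaling. A negative value means a lower level in Δ*amyR*. The value after ± is an SE derived from the F statistic of that test. Calls required an adjusted p (Benjamini-Hochberg, over all genes tested) below 0.05 together with a difference of more than 2-fold.

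Of 9176 genes tested, 1970 (21.5%) were called between the 2 mutants. In Δ*amyR*, 880 genes (9.59%) were higher and 1090 (11.9%) were lower than in Δ*creA*. These shares are the reference for the counts in gene groups below. Most gene functions, however, come from lists of the study that cover 1057 genes, many of them selected on these libraries. Of those annotated genes 612 were called between the mutants, a larger share than over all genes. A group count above the shares over all genes is therefore not by itself evidence that the group stands out. Another 2353 genes passed the adjusted p but differed by 2-fold or less. The largest differences lay mostly on the lower side, with 83 of the 109 genes that differed by more than 16-fold being lower in Δ*amyR*. The median difference over all genes was 0.00 with TMM scaling, which centres the bulk of genes, and 0.06 when libraries were scaled by their totals alone. Against wild-type, 692 genes (7.54%) were called in Δ*amyR*, 308 (3.36%) higher and 384 (4.18%) lower, and 1091 genes (11.9%) were called in Δ*creA*, 590 (6.43%) higher and 501 (5.46%) lower. These shares are likewise the reference for the group counts against wild-type. The 2 comparisons with wild-type share the 3 wild-type cultures. They also depend on scaling, because with library totals the medians over all genes moved to -0.43 and -0.45 and the calls became 150 higher with 1062 lower in Δ*amyR* and 331 higher with 1385 lower in Δ*creA*. Changes from wild-type are therefore given below on the TMM scale, and the direct difference between the mutants carries the comparison. RNA came from whole mycelium, so fewer cells with a transcript and less of it in each cell cannot be told apart.

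**Figure D1:**
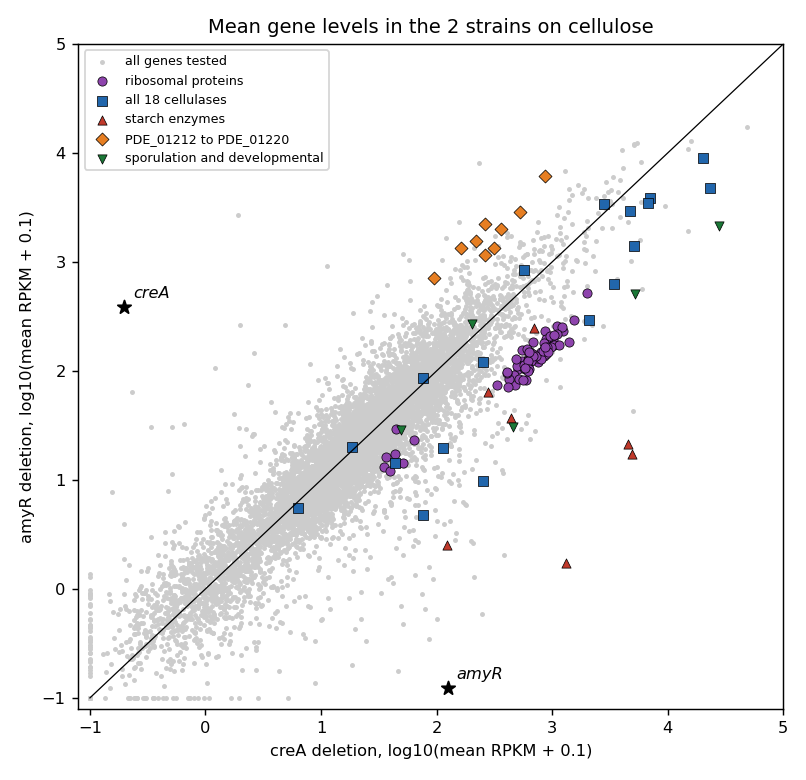
Mean level of each of the 9176 tested genes in the Δ*creA* mutant (horizontal axis) and the Δ*amyR* mutant (vertical axis), both as log10 of mean RPKM + 0.1 over 3 libraries, with the diagonal marking equal levels. The starch enzymes (red triangles), ribosomal proteins (purple circles) and most cellulases (blue squares) lie below the diagonal, the genes PDE_01212 to PDE_01220 (orange diamonds) lie above it, and the deleted genes (stars) lie far off it on opposite sides.

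The deleted genes matched the labels in all 6 libraries. The *amyR* level was 0.0727, 0 and 0 RPKM in Δ*amyR* and 119, 131 and 124 RPKM in Δ*creA*, or 1 read in all against 5578 reads. That is a ratio of 5541 for Δ*creA* over Δ*amyR* (95% exact interval 994 to 2.19e+05, counting error only). The *creA* level was 0.10, 0.0936 and 0.102 RPKM in Δ*creA*, 1 read in each library, and 394, 438 and 328 RPKM in Δ*amyR*. Each strain still transcribed the regulator that the other lacked. *amyR* itself was at 214, 210.4 and 209 RPKM in wild-type, and its level in Δ*creA* was -0.29 ± 0.19 relative to wild-type on the log2 scale (adjusted p = 0.268), which is within 2-fold. That estimate is TMM-scaled. By RPKM, which is scaled to library totals, every Δ*creA* library lay below every wild-type library, so the size of this change depends on scaling. *creA* in Δ*amyR* was 0.64 ± 0.16 relative to wild-type (adjusted p = 0.00878), also within 2-fold.

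None of 4 known regulators of cellulase genes was called between the mutants, where 21.5% of all genes tested were called. With so few genes, the count cannot be told apart from that share. The activator gene *clrB* (PDE_05999) was at 122, 116 and 92.8 RPKM in Δ*amyR* and 106, 103 and 104 RPKM in Δ*creA*, and its difference was 0.03 (95% interval -0.34 to 0.40). The xylanase activator gene *xlnR* (PDE_07674) differed by 0.01 (-0.45 to 0.48). For these genes any difference in transcript level was therefore less than 2-fold within the interval. The paralogue *clrB-2* (PDE_05883) differed by 0.49 ± 0.16 (adjusted p = 0.0168) and the repressor gene *ace1* (PDE_01988) by 0.71 ± 0.18 (adjusted p = 0.00325). Both estimates were under 2-fold, but the 95% interval of *ace1* (0.33 to 1.10) reached past 2-fold.

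By their median difference, the genes of starch breakdown differed more than any other enzyme group examined. All 7 were lower in Δ*amyR*, with a median difference of -5.72 against 0.00 for all genes, of which 11.9% were called lower. The study names PDE_01201, PDE_01354, PDE_09417, PDE_05527 and PDE_04151 from its own list of genes lower in Δ*amyR* than in wild-type. These members were thus in part selected on these libraries. Their direction, and the rank of the group, are not independent evidence. Amy13A (PDE_01201), the α-amylase that cuts within starch chains, was at 1.07, 2.37 and 1.44 RPKM in Δ*amyR* and 1105, 1691 and 1193 RPKM in Δ*creA*. The mutants were 844-fold apart (-9.72 ± 0.57, adjusted p = 1.22e-10). The glucoamylase Amy15A (PDE_09417), which releases glucose from the chain ends, was at 18.6, 19.3 and 26.5 RPKM in Δ*amyR* and 4038, 5356 and 4284 RPKM in Δ*creA*, 222-fold lower in the former (-7.79 ± 0.51, adjusted p = 6.3e-10). PDE_01354, annotated with a starch-binding and a chitin-binding domain, was at 16.7, 18.9 and 16.3 RPKM in Δ*amyR* and 4898, 5148 and 4633 RPKM in Δ*creA* (-8.20 ± 0.43, adjusted p = 3.25e-11). For these genes the libraries of the mutants were far apart and did not overlap. The second glucoamylase PDE_05527 was lower by 12.4-fold, at 35.8, 39.6 and 35.1 RPKM in Δ*amyR* and 449, 428 and 446 RPKM in Δ*creA*. The 3 putative α-glucosidases, which split maltose and short α-glucans, were lower by 52.6-fold (PDE_03966), 4.57-fold (PDE_04151) and 2.91-fold (PDE_00400), and in these too all Δ*amyR* libraries lay below all Δ*creA* libraries. The 7 genes together took 0.0903 ± 0.0098% of the reads in Δ*amyR* (SD, n = 3), 2.06 ± 0.23% in Δ*creA* and 0.789 ± 0.037% in wild-type. Relative to wild-type all 7 were called lower in Δ*amyR*, and 4 were called higher in Δ*creA*. Amy13A was -7.06 ± 0.52 in Δ*amyR* and 2.67 ± 0.40 in Δ*creA* relative to wild-type, whereas the α-glucosidase PDE_03966 was -5.75 ± 0.30 in Δ*amyR* and -0.03 ± 0.24 in Δ*creA* (adjusted p = 0.938 for the latter).

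Most cellulase genes were above the wild-type level in both mutants, and many were lower in Δ*amyR* than in Δ*creA*. Of the 18 predicted cellulase genes, 10 were lower in Δ*amyR* than in Δ*creA*, none was called higher and 8 were not called, with a median difference of -1.16. Over all genes tested, 11.9% were called lower and 9.59% higher. The share of reads from the 18 genes was 4.43 ± 0.75% in Δ*amyR*, 10.7 ± 0.094% in Δ*creA* and 0.681 ± 0.13% in wild-type (SD, n = 3 each). Relative to wild-type, 11 were called higher and 1 lower in Δ*amyR*, and 14 were called higher in Δ*creA*. The pair of mutants was picked because earlier results had cellulase genes above wild-type in each, so these counts against wild-type are not independent evidence. The count of cellulase genes lower in Δ*amyR* ranged from 8 to 12 when libraries were left out, with none called higher.

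All 3 cellobiohydrolase genes were lower in Δ*amyR*, against 11.9% of all genes tested. *cbh1* (PDE_07945), which encodes the major enzyme acting from the reducing chain end, was at 8562, 11191 and 7098 RPKM in Δ*amyR*, 20497, 19901 and 19902 RPKM in Δ*creA* and 1323, 950.1 and 734 RPKM in wild-type. It was 2.33-fold lower in Δ*amyR* than in Δ*creA* (-1.22 ± 0.34, adjusted p = 0.00621). This call was lost when Δ*amyR* replicate 3 and Δ*creA* replicate 2 were both left out, although the difference stayed at -1.03. Cel6A (PDE_07124), which works from the other chain end, was at 5116, 5621 and 3607 RPKM in Δ*amyR* and 22796, 23606 and 23846 RPKM in Δ*creA*, 5.07-fold apart (-2.34 ± 0.35, adjusted p = 1.46e-05). The third, the putative cellobiohydrolase PDE_05445, was at 6.79, 5.08 and 2.17 RPKM in Δ*amyR* and 84.2, 65.3 and 77.1 RPKM in Δ*creA*. With a factor of 16.7 it had the widest gap of the 3, at the lowest level.

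Of the 12 endoglucanase genes 4 were lower in Δ*amyR* and 8 were not called, with a median difference of -0.83. The share called lower over all genes tested was 11.9%. PDE_06439 was at 11.4, 10.7 and 7.06 RPKM in Δ*amyR* and 259, 228 and 267 RPKM in Δ*creA*, 26.7-fold lower in the former (-4.74 ± 0.29, adjusted p = 2.52e-10). Its level in Δ*amyR* was not called different from wild-type (0.69 ± 0.29, adjusted p = 0.0983), and in Δ*creA* it was 5.43 ± 0.30 relative to wild-type. PDE_02886 was lower by 6.0-fold, PDE_09014 by 3.16-fold and Cel5A (PDE_00507) by 3.84-fold. PDE_09014 was the single cellulase gene called lower than wild-type in Δ*amyR* (-1.52 ± 0.25), while its difference from wild-type in Δ*creA* was 0.14 ± 0.24. The endoglucanase gene *eg2* (PDE_09226) was at 3619, 3987 and 2916 RPKM in Δ*amyR* and 6409.9, 7062 and 6746 RPKM in Δ*creA*. Its difference sat at the 2-fold limit (-0.995 ± 0.24, adjusted p = 0.00225) and it was called under 5 of the alternative settings. The adjacent genes PDE_07929 (Cel7B) and PDE_07928 (Cel45A) differed by -0.94 ± 0.22 and -0.73 ± 0.25, under 2-fold, with the Δ*amyR* libraries below the Δ*creA* libraries in both. Cel5C (PDE_09969) was at 3552, 3898 and 2758 RPKM in Δ*amyR* and 2554, 3119.8 and 2758 RPKM in Δ*creA*, and these libraries overlapped. Its difference was 0.22 (95% interval -0.39 to 0.83), while it was 3.27 and 3.05 relative to wild-type in Δ*amyR* and Δ*creA*.

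The 3 cellulose monooxygenase genes, whose products cleave crystalline cellulose by oxidation, were all lower in Δ*amyR*, against 11.9% of all genes tested. Cel61A (PDE_05633) was at 397, 322 and 161 RPKM in Δ*amyR* and 2481, 1449 and 2353 RPKM in Δ*creA*, 7.32-fold apart (-2.87 ± 0.35, adjusted p = 1.41e-06). PDE_01261 and PDE_00698 were lower by 5.64-fold and 2.13-fold, and the latter lost its call without Δ*amyR* replicate 3 (-0.92). PDE_00698 was at 159.6, 112 and 93.6 RPKM in Δ*amyR* and 247, 249.8 and 256 RPKM in Δ*creA*. Within the Δ*amyR* triplicate, replicate 3 was the lowest for Cel61A, for *cbh1* and for Cel6A.

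**Figure D2:**
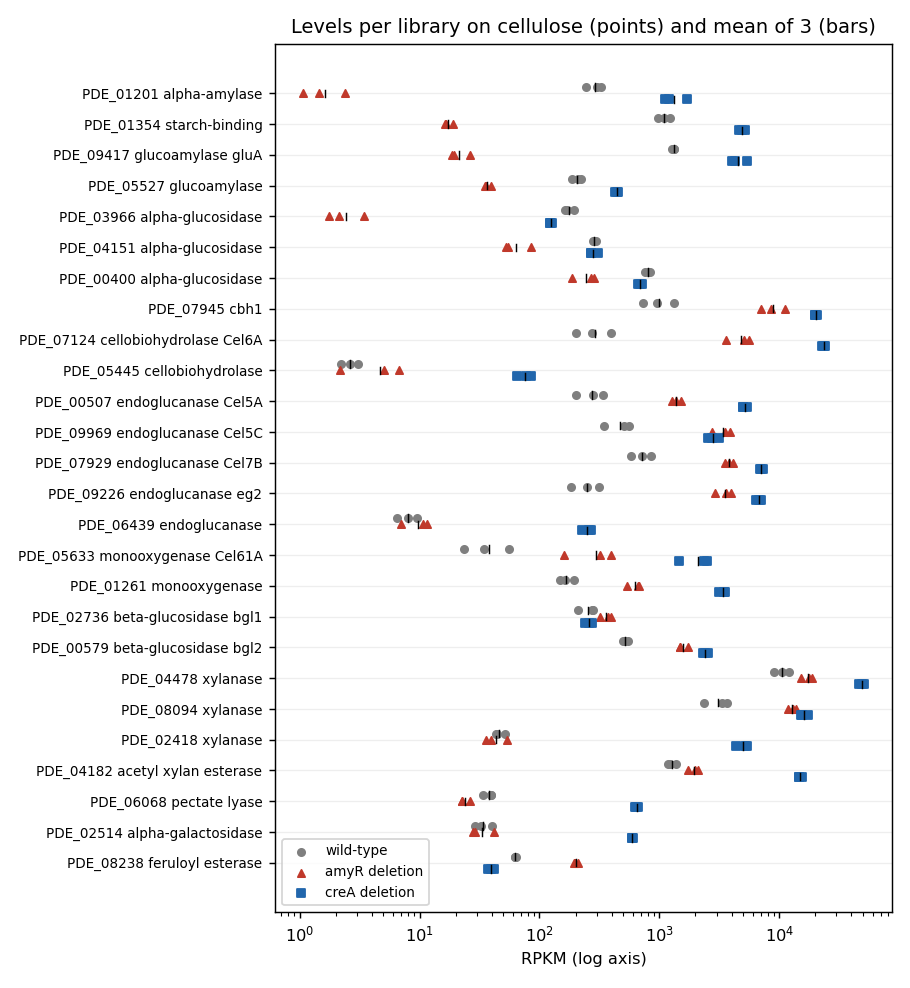
Level of 26 genes for starch and cell wall breakdown in each library (horizontal log axis, RPKM), with 1 point per library for the wild-type, Δ*amyR* and Δ*creA* cellulose cultures (n = 3 each) and a bar at each mean. The starch enzymes of Δ*amyR* lie below both other strains, as for PDE_01201 at 1.07 to 2.37 RPKM, while *cbh1*, Cel6A and *eg2* of Δ*amyR* lie between wild-type and Δ*creA*.

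None of the 4 β-glucosidase genes examined was called between the mutants, with a median difference of 0.07. The study predicts more β-glucosidase genes than these, and 21.5% of all genes tested were called. *bgl1* (PDE_02736), for the main extracellular enzyme, was at 393, 374 and 319 RPKM in Δ*amyR* and 274, 258 and 241 RPKM in Δ*creA* (difference 0.44, 95% interval -0.16 to 1.03). *bgl2* (PDE_00579), for the main intracellular enzyme, differed by -0.68 ± 0.19 (adjusted p = 0.00512), which was under 2-fold. The swollenin gene PDE_02102, for a protein that loosens cellulose fibres without hydrolysis, differed by -0.78 ± 0.30 (adjusted p = 0.0376), also under 2-fold. Of 4 sugar transporter genes, the cellodextrin transporters CdtC (PDE_00607) and CdtD (PDE_00753) differed by -0.15 (-0.58 to 0.29) and -0.00042 (-0.37 to 0.37), so both intervals lay within 2-fold. PDE_04857, annotated as a membrane transporter, was the 1 member called, and it was higher in Δ*amyR*. It was at 295, 263 and 198 RPKM in Δ*amyR*, 77.1, 77.3 and 72.1 RPKM in Δ*creA* and 80.8, 88.1 and 87.4 RPKM in wild-type, 3.21-fold higher in Δ*amyR* than in Δ*creA* (1.68 ± 0.23, adjusted p = 5.71e-06).

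Among the genes for xylan, the main hemicellulose, the backbone-cutting enzymes were mostly lower in Δ*amyR* and the side-chain enzymes moved both ways. Of 8 putative xylanase genes 6 were lower in Δ*amyR*, none was called higher, and the median difference was -1.57. The shares over all genes tested were 11.9% lower and 9.59% higher. PDE_02418 was at 54.0, 36.0 and 39.6 RPKM in Δ*amyR*, 5356, 4387 and 5162 RPKM in Δ*creA* and 44.2, 43.8 and 51.1 RPKM in wild-type. It was 119-fold lower in Δ*amyR* than in Δ*creA* (-6.90 ± 0.29, adjusted p = 8.01e-13). Relative to wild-type it was 0.31 ± 0.23 in Δ*amyR* (adjusted p = 0.36) and 7.21 ± 0.29 in Δ*creA* (adjusted p = 6.65e-13). PDE_04478 had the highest mean level of all genes in each mutant, at 18858, 17714 and 15302 RPKM in Δ*amyR* and 51296, 45984 and 49380.5 RPKM in Δ*creA*, 2.93-fold apart (-1.55 ± 0.25, adjusted p = 3.53e-05). PDE_02682, PDE_02101 and PDE_00752 were lower in Δ*amyR* by 3.81-, 3.01- and 2.93-fold. PDE_00014 was near the detection limit, with 3 reads in the Δ*amyR* libraries against 76 in Δ*creA*, a ratio of 25.2 for Δ*creA* over Δ*amyR* (95% exact interval 8.29 to 125). The *xyn1* gene PDE_08094 was not called (-0.37 ± 0.26, adjusted p = 0.263).

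Of 12 genes for xylan side chains and xylosidases, 3 were lower and 4 higher in Δ*amyR*, with a median of 0.80. The shares over all genes tested were 11.9% and 9.59%. The acetyl xylan esterase PDE_04182, which removes acetyl groups from xylan, was at 2087, 1996 and 1745 RPKM in Δ*amyR* and 15517, 14574 and 14600.5 RPKM in Δ*creA*, 7.95-fold lower in the former (-2.99 ± 0.23, adjusted p = 5.23e-09). The acetyl xylan esterase PDE_09278 was lower by 5.37-fold and the feruloyl esterase PDE_06649 by 3.76-fold. Another feruloyl esterase went the other way. PDE_08238 was at 195, 209 and 198 RPKM in Δ*amyR*, 39.6, 41.6 and 37.5 RPKM in Δ*creA* and 64.0, 62.2 and 62.1 RPKM in wild-type, 4.87-fold higher in Δ*amyR* than in Δ*creA* (2.28 ± 0.32, adjusted p = 8.15e-06). The other members called higher were the acetyl xylan esterase PDE_01302 (1.03) and the xylosidases PDE_07334 (1.18) and PDE_08037 (1.26). These 3 lie near the 2-fold limit, and all lost their calls without Δ*amyR* replicate 1, which left 4 of the 12 genes called.

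Of 6 genes for arabinan and arabinofuranose release 3 were lower in Δ*amyR* and 1 was higher, with a median of -1.81. For this group and for the mannan, pectin and chitinase genes, the shares over all genes tested were 11.9% lower and 9.59% higher. The α-L-arabinofuranosidases PDE_07897, PDE_00016 and PDE_06067, which trim arabinose from hemicellulose and pectin, were lower by 10.04-, 8.73- and 6.93-fold. For PDE_07897 the levels were 237, 172 and 175 RPKM in Δ*amyR* and 1819, 2094 and 1726 RPKM in Δ*creA*. PDE_07585, annotated with the same activity, was higher in Δ*amyR* (1.14 ± 0.31, adjusted p = 0.00491). Of 4 mannan and galactoside genes, the α-galactosidase PDE_02514 and the mannanase PDE_06438 were lower, by 18.8- and 6.25-fold, and the median of the group was -1.55. PDE_02514 was at 42.1, 27.7 and 28.9 RPKM in Δ*amyR*, 594, 607 and 587 RPKM in Δ*creA* and 39.9, 29.2 and 32.7 RPKM in wild-type, and the Δ*amyR* and wild-type libraries overlapped. The more abundant mannanase PDE_06023 and the β-mannosidase PDE_05998 were not called (-0.46 ± 0.20 and 0.62 ± 0.27). Of 11 pectin enzyme genes 10 were tested and 4 were lower in Δ*amyR*, with a median of -0.40. The pectate lyase PDE_06068 was at 22.5, 26.5 and 22.5 RPKM in Δ*amyR* and 644, 625 and 665 RPKM in Δ*creA*, 28.0-fold apart (-4.81 ± 0.21, adjusted p = 1.63e-12). The others were PDE_09285, annotated as a rhamnogalacturonan rhamnohydrolase (-2.11), and the polygalacturonases PDE_07153 (-1.26) and PDE_07938 (-1.15). PDE_03289, PDE_03466 and PDE_06451 lay just under the limit in the other direction, from 0.94 upwards, and without Δ*amyR* replicate 3 the count of pectin genes called rose to 8. Neither of 2 α-xylosidase genes was called (0.67 and 0.62), and of 3 chitinase genes, whose products act on fungal cell walls, PDE_01573 was lower in Δ*amyR* (-1.13 ± 0.28, adjusted p = 0.00212). It was at 23.1, 31.0 and 18.8 RPKM in Δ*amyR* and 39.4, 56.0 and 59.0 RPKM in Δ*creA*, and the call was lost without Δ*amyR* replicate 3 (-0.96). The actin gene, a structural gene set beside the enzymes, differed by -0.03 (95% interval -0.29 to 0.22).

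**Figure D3:**
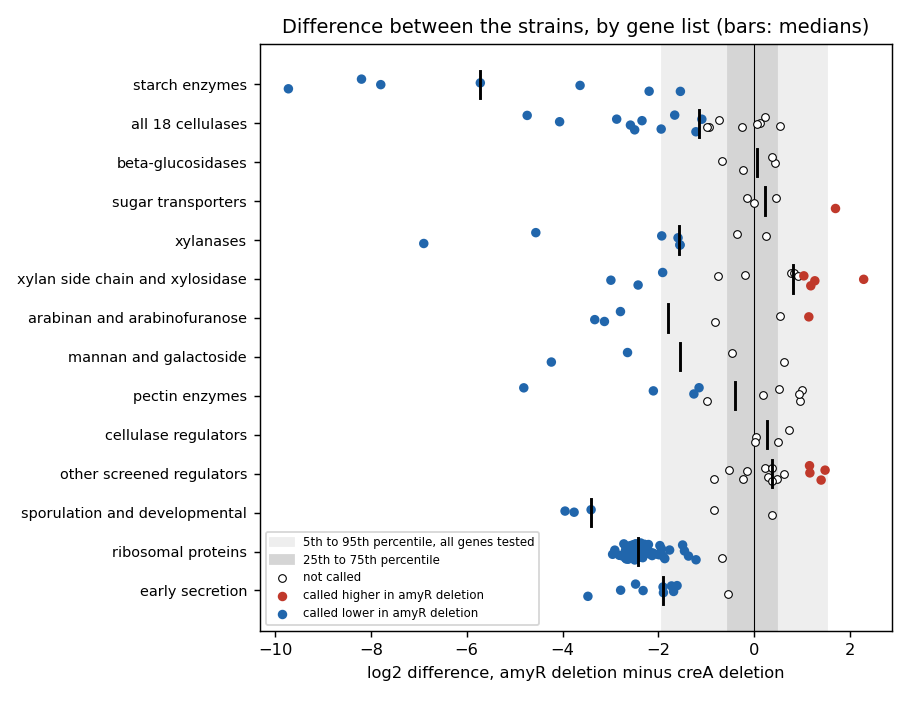
Log2 difference of Δ*amyR* over Δ*creA* (horizontal axis) for each tested gene of the gene groups, with filled points for called genes, open points for genes not called, a bar at each median and shading for the 25th to 75th and the 5th to 95th percentile of all genes tested. Starch enzymes (median -5.72) and ribosomal proteins (median -2.43) lie almost wholly to the left. Cellulases (median -1.16) lie left or near 0, and the β-glucosidases examined (median 0.07) lie around 0.

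Ribosomal proteins build the machinery of translation, and secreted enzymes pass from it into the endoplasmic reticulum. Of 78 genes annotated as ribosomal proteins 77 were lower in Δ*amyR*, against 11.9% of all genes tested, with a median difference of -2.43. For 77 of the 78 the annotation came from a table of the study that lists genes lower in Δ*amyR* than in wild-type on cellulose, so the members were in part selected on these libraries and their direction is not independent evidence. The 72 genes with eukaryotic-type subunit names lay between -2.96 and -1.87, a narrow range beside the 5th to 95th percentile of all genes (-1.93 to 1.52). The 6 genes with bacterial-type names, the naming used for mitochondrial ribosomes, lay between -1.77 and -0.66. Ribosomal protein genes took 0.533 ± 0.066% of the reads in Δ*amyR* and 2.70 ± 0.23% in Δ*creA*, against 1.39 ± 0.057% in wild-type. Relative to wild-type 34 were called lower in Δ*amyR* and 71 higher in Δ*creA*. These counts depend on scaling, since with library totals 77 were lower in Δ*amyR* and 25 higher in Δ*creA*, whereas the count between the mutants stayed at 77.

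Of 10 genes for early secretion 9 were lower in Δ*amyR*, against 11.9% of all genes tested. The median of the 10 was -1.90, and 9 of the 10 came from that same table. PDE_08980, the Hsp70 chaperone of the endoplasmic reticulum that binds unfolded secretory proteins, was at 79.3, 93.6 and 74.9 RPKM in Δ*amyR*, 865, 868 and 918 RPKM in Δ*creA* and 169, 179 and 164 RPKM in wild-type. It was 11.1-fold lower in Δ*amyR* than in Δ*creA* (-3.47 ± 0.35, adjusted p = 1.36e-07), and relative to wild-type it was 2.84 ± 0.34 in Δ*creA* (adjusted p = 3.33e-06) and -0.64 ± 0.32 in Δ*amyR* (adjusted p = 0.174). Calnexin (PDE_08629), which holds glycoproteins until they fold, was at 50.6, 51.0 and 44.6 RPKM in Δ*amyR* and 316, 347 and 309.7 RPKM in Δ*creA*, 6.91-fold apart. The α subunit of the SEC61 channel (PDE_09594), through which nascent chains enter the endoplasmic reticulum, was lower by 5.57-fold. The exception was PDE_01720, a subunit of the signal recognition particle, at -0.54 ± 0.14 (adjusted p = 0.0032). Relative to wild-type 8 of the 10 were called higher in Δ*creA* and 1 lower in Δ*amyR* on the TMM scale, and 3 and 9 with library totals.

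The 3 genes that the study ties to sporulation were lower in Δ*amyR*, and the study picked them from a group defined on these libraries. PDE_09832, without an annotated function, was at 2095, 1760.5 and 2496 RPKM in Δ*amyR*, 34166, 21478 and 27392 RPKM in Δ*creA* and 10348, 12104 and 14428 RPKM in wild-type. It was 13.5-fold lower in Δ*amyR* than in Δ*creA* (-3.76 ± 0.39, adjusted p = 1.73e-07). PDE_04496, annotated as scytalone dehydratase, an enzyme of the melanin pathway that colours spores in other fungi, was at 41.3, 26.9 and 23.7 RPKM in Δ*amyR* and 536, 356 and 482 RPKM in Δ*creA*. PDE_09715 was lower by 10.6-fold. All 3 genes were lower than wild-type in Δ*amyR* and higher than wild-type in Δ*creA*. The developmental regulator genes *stuA* (PDE_04095) and *flbC* (PDE_08372) were not called between the mutants, at 0.37 ± 0.15 (adjusted p = 0.0509) and -0.83 ± 0.31 (adjusted p = 0.0344). The summed level of the 5 genes was 2572 to 3336 RPKM in Δ*amyR*, 25841 to 41078 RPKM in Δ*creA* and 12943 to 17332 RPKM in wild-type, and none was at 0. Whether the amount of spore-forming cells in the cultures bears on the other differences was not tested.

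A further group was made of transcription factor genes from a screen of deletion strains for cellulase production. Of these 14 genes, 4 were higher in Δ*amyR* and none was lower, with a median of 0.37. Over all genes tested, 9.59% were called higher and 11.9% lower. The bZIP gene PDE_09023 was at 312, 354 and 355 RPKM in Δ*amyR* and 94.6, 145 and 111 RPKM in Δ*creA* (1.48 ± 0.33, adjusted p = 0.00119). The zinc finger genes PDE_01706, PDE_08462 and PDE_07134 differed by 1.40, 1.16 and 1.15. PDE_01706 was at 306, 431 and 681 RPKM in Δ*amyR* and 164, 194 and 157 RPKM in Δ*creA*, and PDE_07134 at 7.15, 8.89 and 14.9 and 5.81, 4.32 and 3.19 RPKM. In both genes Δ*amyR* replicate 3 was the highest library. These 2 genes lost their calls without Δ*amyR* replicate 3 (1.06 and 0.82) and without Δ*creA* replicate 3 (1.31 and 0.95).

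The largest increase outside the deleted genes was in a group of neighbouring loci whose levels were close to 0 in Δ*creA*. PDE_09192 was at 837, 2442 and 4772 RPKM in Δ*amyR*, 2.35, 0.731 and 2.39 RPKM in Δ*creA* and 2218, 2644 and 1665 RPKM in wild-type. The difference was 10.47 ± 1.18 (adjusted p = 5.15e-07), with the Δ*amyR* libraries spread over a wide range but all above every Δ*creA* library. The loci PDE_09193 and PDE_09194 and the unbroken run PDE_09196 to PDE_09202 were also higher in Δ*amyR*, and PDE_09195 between them was not called (0.39). The run had 7 genes, a median difference of 6.81, and an O-methyltransferase (PDE_09196) and a cytochrome P450 (PDE_09199) among its annotations. For PDE_09199 the Δ*creA* libraries held 5 reads in all, and the ratio of Δ*amyR* over Δ*creA* was 491 (95% exact interval 210 to 1513). In this run 6 genes were called lower than wild-type in Δ*creA* and 1 higher than wild-type in Δ*amyR*. Of the 10 largest increases, 6 lay between PDE_09192 and PDE_09201. Locus numbers follow the naming order of the genes, and their positions in the genome were not analysed here.

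Counting unbroken runs of at least 5 consecutive locus numbers called in 1 direction gave 9 runs higher in Δ*amyR* with 56 genes and 8 runs lower with 65 genes. The runs were found from the same differences that are given for them, so these values are a description. The run PDE_08904 to PDE_08908 held enzymes of tyrosine breakdown. PDE_08904 is annotated as 4-hydroxyphenylpyruvate dioxygenase, PDE_08906 as homogentisate dioxygenase, PDE_08907 as fumarylacetoacetase and PDE_08908 as maleylacetoacetate isomerase, which act in the pathway from tyrosine to fumarate and acetoacetate. PDE_08906 was at 1056, 1032 and 1011 RPKM in Δ*amyR*, 68.3, 61.2 and 44.1 RPKM in Δ*creA* and 654, 105 and 248 RPKM in wild-type. The Δ*amyR* libraries were close together and far above Δ*creA* (17.1-fold, 4.10 ± 0.50, adjusted p = 1.39e-06), while the wild-type libraries were widely spread. The median of the run was 4.65. Another run with a 4-hydroxyphenylpyruvate dioxygenase (PDE_09761) and an aromatic aminotransferase (PDE_09759), PDE_09758 to PDE_09762, had a median of 2.08 and all 5 genes higher than wild-type in Δ*amyR*. PDE_09762 lost its call between the mutants without Δ*amyR* replicate 3 (0.991).

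The longest run higher in Δ*amyR* was PDE_01211 to PDE_01224, with 14 genes and a median of 2.39. It holds both subunits of a fatty acid synthase, the enzyme that builds long acyl chains, and a branched-chain amino acid aminotransferase (PDE_01215). The α subunit gene PDE_01217 was at 1862, 2138 and 2719.9 RPKM in Δ*amyR*, 177, 395 and 211 RPKM in Δ*creA* and 457, 627 and 396 RPKM in wild-type (3.02 ± 0.51, adjusted p = 6.9e-05). The β subunit gene PDE_01220 was at 1609.5, 1922 and 2520.5 RPKM in Δ*amyR* and 256, 531 and 302 RPKM in Δ*creA* (2.40 ± 0.41, adjusted p = 8.45e-05). Replicate 3 was the highest of Δ*amyR* and replicate 2 the highest of Δ*creA* for both subunits, and the groups did not overlap. The 9 genes PDE_01212 to PDE_01220 took 6.03 ± 1.12% of the reads in Δ*amyR*, 0.942 ± 0.40% in Δ*creA* and 1.64 ± 0.35% in wild-type, and all 9 stayed called when either or both of those libraries were left out. The study named these 9 genes from its own list of genes higher in Δ*amyR* than in wild-type. Their direction is thus not independent evidence. In the run PDE_00928 to PDE_00932 (median 2.84), PDE_00928 is annotated as cystathionine γ-lyase, an enzyme of sulfur amino acid metabolism, and was at 280.2, 433 and 624 RPKM in Δ*amyR* and 45.8, 81.7 and 50.1 RPKM in Δ*creA*.

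Some of the runs lower in Δ*amyR* carried annotations of alkaloid, terpenoid or prenyl metabolism. The longest was PDE_00792 to PDE_00811, with 20 genes and a median difference of -3.92, and 2 of its genes (PDE_00797 and PDE_00807) carry an alkaloid metabolism annotation. All 20 were called higher than wild-type in Δ*creA* and 17 lower than wild-type in Δ*amyR*. PDE_00794 was at 11.9, 11.4 and 11.1 RPKM in Δ*amyR*, 420.0, 309 and 391 RPKM in Δ*creA* and 74.5, 86.6 and 81.7 RPKM in wild-type, which places the wild-type between the mutants. The run PDE_09999 to PDE_10010 had 12 genes, a median of -5.55, and all 12 were lower than wild-type in Δ*amyR* and higher than wild-type in Δ*creA*. It includes a geranylgeranyl diphosphate synthase (PDE_10001), the enzyme that makes the diterpenoid precursor, and genes matched to a paspaline synthase (PDE_10000) and a verruculogen synthase (PDE_10009) of indole alkaloid pathways. PDE_10009 was at 2.60, 3.08 and 2.24 RPKM in Δ*amyR* and 235, 149.6 and 215 RPKM in Δ*creA* (-6.28 ± 0.46, adjusted p = 3.3e-09).

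The runs PDE_01064 to PDE_01071 (8 genes, median -4.96) and PDE_01073 to PDE_01077 (5 genes, median -4.77) were separated by 1 locus that was too low to be tested. PDE_01066 in the first is annotated as a cyclic dipeptide prenyltransferase, an enzyme of indole alkaloid synthesis, and was at 29.0, 23.3 and 23.1 RPKM in Δ*amyR* and 341, 247 and 325 RPKM in Δ*creA*. In the second, PDE_01075 had 2 reads in the Δ*amyR* libraries against 1247 in Δ*creA*, a ratio of 619 for Δ*creA* over Δ*amyR* (95% exact interval 171 to 5120). In the run PDE_01429 to PDE_01433 (median -4.76), PDE_01429 had 8 reads against 2759, a ratio of 343 (174 to 794). The run PDE_06067 to PDE_06071 (median -2.72) joined the arabinofuranosidase and the pectate lyase described above. Every gene of the 8 lower runs stayed called whichever of the 6 mutant libraries was left out, while the higher runs PDE_06562 to PDE_06566 and PDE_09385 to PDE_09389 fell to 3 of 5 genes called under some omissions.

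**Figure D4:**
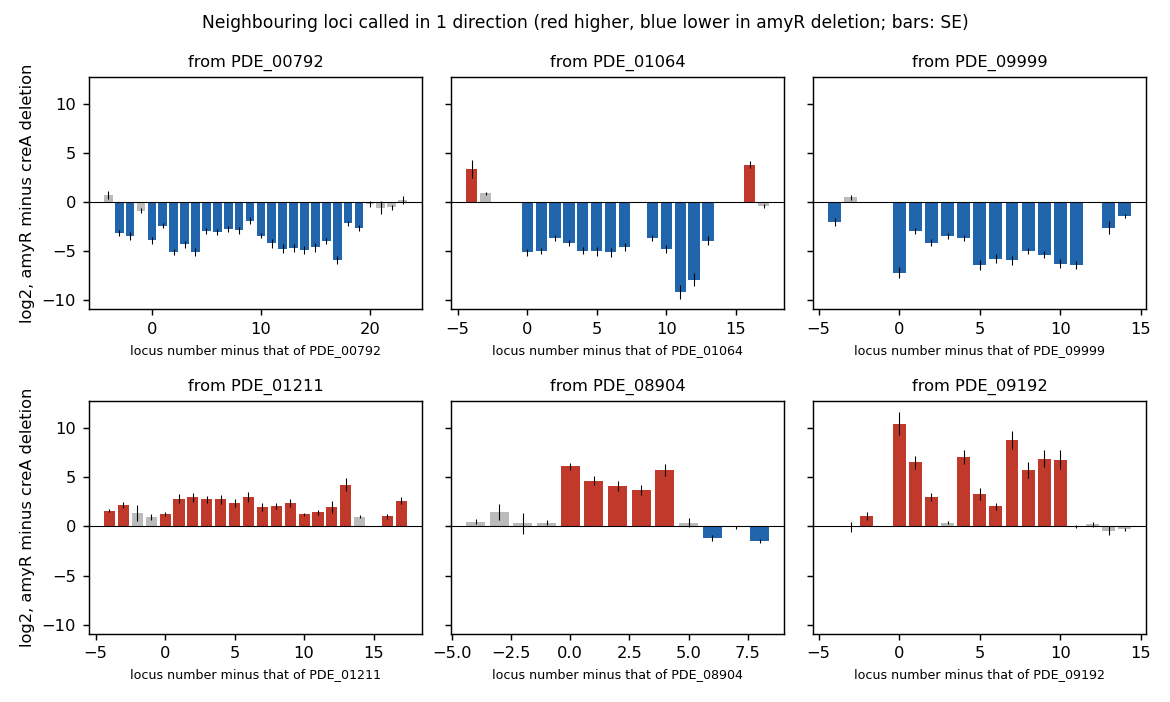
Log2 difference of Δ*amyR* over Δ*creA* (vertical axis, error bars SE) of loci in and around runs of called genes, in 6 panels placed by locus number relative to the locus named above each panel (horizontal axis), red for called higher in Δ*amyR*, blue for called lower and grey for not called. Positions without a bar hold no tested gene, and the genes of a run share 1 direction, with a median of 2.39 for PDE_01211 to PDE_01224 and -5.55 for PDE_09999 to PDE_10010.

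Some single genes stood far from wild-type in opposite directions in the mutants. PDE_06722, without an annotated function, was at 8029, 7884 and 8442 RPKM in Δ*amyR*, 313, 195 and 185 RPKM in Δ*creA* and 2679, 518 and 1350.0 RPKM in wild-type. It was 33.9-fold higher in Δ*amyR* than in Δ*creA* (5.08 ± 0.47, adjusted p = 4.1e-08). PDE_03282, annotated as a glycerate dehydrogenase, was at 1147, 824 and 783 RPKM in Δ*amyR*, 12.5, 10.5 and 10.3 RPKM in Δ*creA* and 108, 12.7 and 29.7 RPKM in wild-type (6.32 ± 0.67, adjusted p = 2.41e-07). PDE_03463, with a ferrous iron-binding oxidoreductase annotation, followed the same order at a lower level (4.99 ± 0.55). In wild-type, replicate 1 was the highest library for PDE_06722 and PDE_03282. Without it, PDE_03282 and PDE_03463 were no longer called lower than wild-type in Δ*creA* (-0.44 and -1.02), while PDE_06722 still was. Many genes were lower than wild-type in Δ*amyR* and higher in Δ*creA*. The 5 of these with the largest difference between the mutants were Amy13A, Amy15A, PDE_01354, PDE_01429 and PDE_04665. The last had 3 reads in the Δ*amyR* libraries against 1602 in Δ*creA*, a ratio of 531 for Δ*creA* over Δ*amyR* (95% exact interval 181 to 2575). PDE_07091, without an annotation in the sources used, was at 1.53, 2.30 and 2.01 RPKM in Δ*amyR* and 485, 213 and 442 RPKM in Δ*creA*, and was among the 10 largest decreases. PDE_09492, likewise unannotated, was at 1.11, 1.10 and 1.35 RPKM in Δ*amyR* and 267, 108 and 253 RPKM in Δ*creA*.

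Among the called genes with the highest levels over the 6 libraries, those that were higher in Δ*amyR* carried no annotation in the sources used. PDE_06391 was at 14783, 12192 and 10381 RPKM in Δ*amyR* and 5603, 5548 and 5199.9 RPKM in Δ*creA* (1.14 ± 0.21, adjusted p = 0.000196). PDE_05655, PDE_09166 and PDE_09098 were higher by 2.32-, 2.19- and 2.57-fold. The call of PDE_06391 was lost without Δ*amyR* replicate 1 (0.993), and that of PDE_05655 when Δ*amyR* replicate 3 and Δ*creA* replicate 2 were both left out (1.21). Those lower in Δ*amyR* were PDE_09832 and the wall-degrading enzymes already described, namely the xylanases PDE_04478 and PDE_02101, *cbh1*, Cel6A and the acetyl xylan esterase PDE_04182.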

How the data were processed

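RNA was sequenced from 24 libraries in 8 groups of 3, of which the 3 Δ*amyR* and 3 Δ*creA* cellulose libraries are the members and the 3 wild-type cellulose libraries the reference. Reads were mapped with SOAP2 (version not given in the sources used here), and CASAVA 1.8 is named in the submitters' processing notes. The deposited table holds, per gene and library, the count of uniquely mapped reads, the RPKM that the authors computed from that count, the gene length and the library total, and the percent of each gene covered by reads, which the authors also gave as coverage and which was not used. Of the lengths 99.97% were multiples of 3, so they are coding lengths.

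Genes that reached an RPKM of 1 in 3 or more of the 24 libraries were kept (9176 of 9832). Read counts were tested with edgeR 4.0.16 (glmQLFit and glmQLFTest, TMM scaling) in R 4.3.3, with all 24 libraries in 1 fit with 8 group means. Genes were called at a Benjamini-Hochberg adjusted p under 0.05 over all kept genes and an absolute log2 difference above 1. Each SE was derived as the absolute log2 difference divided by the square root of the test's F statistic. Intervals are 95%, from that SE and a t distribution with 16 degrees of freedom. RPKM is per total library reads, while log2 differences are TMM-scaled. Ratios for genes with few reads use library totals and an exact binomial interval, which covers counting error only. Alternatives were other scaling (totals, median-ratio), no filter, DESeq2 1.42.0, limma 3.58.1 on log2(RPKM + 1) and log2(RPKM + 0.1), only the groups compared, a replicate block, and each library left out.

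Named genes were the deleted genes, members of gene lists, the 10 largest increases and the 10 largest decreases among called genes with non-overlapping libraries and a mean RPKM of at least 10 in the higher strain, the 10 called genes with the highest levels, the 5 largest each way among genes called in opposite directions from wild-type, and runs of at least 5 consecutive locus numbers. PDE_00794, PDE_10009, PDE_01066, PDE_08906 and PDE_00928 were picked within their runs after their values were seen. Gene functions come from the annotation in the study's supplementary tables, which covers 1057 genes, 612 of the 1970 called. The members and lists were chosen with earlier results of these data known. Promoter and protein sequences were not analysed here.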

Additional observations from a re-analysis of the deposited data

How the results depend on the processing

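Between the mutants, the 1970 called genes became 1954 with library totals, 1978 with median-ratio scaling, 1990 without the filter, 1996 with DESeq2, 1967 and 1691 with limma on log2(RPKM + 0.1) and log2(RPKM + 1), and 2036 when only the groups compared were fitted. Leaving out 1 library at a time gave 1803 to 2106. Leaving out Δ*amyR* replicate 3 and Δ*creA* replicate 2 together, an alternative chosen after seeing the data, gave 2095. Of the 324 tested genes described, 269 were called, 251 of them under every alternative run, 18 lost the call under at least 1 alternative, and none changed direction when called.

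Against wild-type the counts depended on scaling. For Δ*amyR* the 692 calls became 1212 (150 higher) with library totals and 1186 (142 higher) with limma on log2(RPKM + 0.1), and leaving out 1 library gave 544 to 696. For Δ*creA* the 1091 calls became 1716 (331 higher) and 1697 (327 higher), and leaving out 1 library gave 980 to 1110. The share of calls that were higher fell from 44.5% to 12.4% in Δ*amyR* and from 54.1% to 19.3% in Δ*creA* with library totals.

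The calls among the xylan side-chain genes ranged from 4 to 8 of 12 and those among the pectin genes from 4 to 8 of 10 when a library was left out, and the other screened regulators from 2 to 4 of 14. Without Δ*amyR* replicate 3 and Δ*creA* replicate 2 together, 7 pectin genes and 2 screened regulators were called.

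With the replicate number as a block, 1943 genes were called between the mutants, and 681 and 1077 against wild-type. Same-numbered libraries of the mutants did not deviate together (correlations of deviations 0.12, -0.03 and -0.01), so the numbers were not taken to pair the cultures. At these depths, genes with up to 3 reads in each library of a group give ratios with wide counting intervals.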
